A study of Mus musculus with 8 samples.

Results

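The tumor necrosis factor (TNF) superfamily comprises membrane-bound or shed ligands and the receptors that bind them. The family was examined in whole cornea of male mice after deletion of the glucocorticoid receptor. Its members were the rows of the expression table whose symbol begins with Tnfsf or Tnfrsf and a digit, together with Tnf, Lta, Ltb, Ltbr, Fas, Fasl, Cd40 and Ngfr. Of 40 such rows, the read-through row Tnfsf12Tnfsf13 was listed at 0 in every library and was dropped, which left 39 members (15 ligands and 24 receptors) of 19536 rows with a value other than 0. The mice were 3 months old, on a C57BL/6J/FVB background. The corneaGRKO mice (GRloxP/loxP-PAX6Cre/+) carried the floxed receptor gene and a Cre recombinase under the P0 promoter of Pax6. The GRflox mice (GRloxP/loxP-PAX6+/+) were littermates that carried the same floxed gene and no Cre, so Cre itself and loss of the receptor cannot be told apart. There were 4 libraries in either group (replicates 1, 3, 4 and 5), each made from a pool of 4 to 6 corneas. Epithelium, stroma, endothelium and resident immune cells were measured together, so more cells of a type and more RNA per cell cannot be told apart.

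Ligands of this family are mostly trimers, and they cluster their receptors at the cell surface. Some receptors (TNF receptor 1, FAS, the TRAIL receptor) carry a death domain and can switch on caspases. Others recruit TRAF adaptors and activate NF-κB, and decoy receptors bind ligand without signalling. In the cornea the family is known for its part in inflammation, in the immune privilege of the eye through FAS ligand, and in the growth of new vessels.

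The cornea of corneaGRKO mice had more RNA of the death ligand TRAIL and of its death receptor than the cornea of GRflox mice. Tnfsf10, which encodes TRAIL, rose by 0.87 on the log2 scale, and Tnfrsf10b, which encodes the only mouse TRAIL receptor with a death domain, rose by 0.29. These were the only members past the test among the 22 members (4 ligands and 18 receptors) that were high enough to be tested, and 0 members fell. The classical inflammatory ligand Tnf and its receptors Tnfrsf1a and Tnfrsf1b did not pass, with differences of -0.14, 0.01 and 0.08. Cd40, a receptor of antigen-presenting and epithelial cells, stood just outside the threshold at -0.23.

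The promoter of Tnfsf10 is shown because Tnfsf10 had the largest difference among the tested members. It holds 2 matches to the core of the interferon-stimulated response element, a site bound by interferon-activated factors. The sequence is from RefSeq on GRCm38.p6, plus strand, and covers chr3:27316827-27317126, from 250 bases before the transcription start to 50 after it. Capitals mark the 2 matches, which lie between 53 and 23 bases before the start:
Tnfsf10 promoter: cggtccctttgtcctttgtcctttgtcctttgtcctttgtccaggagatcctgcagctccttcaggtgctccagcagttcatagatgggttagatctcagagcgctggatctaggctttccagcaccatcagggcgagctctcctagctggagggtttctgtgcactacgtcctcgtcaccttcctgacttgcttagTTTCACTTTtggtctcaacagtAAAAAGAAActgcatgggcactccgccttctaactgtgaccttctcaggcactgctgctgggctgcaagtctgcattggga

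The core was searched as AAANNGAAA on both strands, and a match on the other strand appears as its reverse complement. Of all 32851 promoters of this length, 10.6% held it. Among members, 31 of 39 had a promoter in the RefSeq table, and 6 of these held the core. Their matches, in capitals with 10 bases on either side and positions on GRCm38.p6, are printed to set Tnfsf10 beside members with the same letters, read along the strand of the gene:
Tnfsf10, chr3:27317014-27317064, plus strand: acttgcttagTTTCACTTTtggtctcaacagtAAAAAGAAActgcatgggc
Tnfsf13b, chr8:10006602-10006636, plus strand: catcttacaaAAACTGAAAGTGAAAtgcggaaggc
Tnfrsf14, chr4:154928117-154928151, minus strand: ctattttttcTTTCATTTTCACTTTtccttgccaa
Tnfrsf1b, chr4:145246862-145246890, minus strand: ggcctgagggTTTCGCTTTcagtcaccag
Tnfrsf4, chr4:156013564-156013592, plus strand: ttccccctcaAAAAAGAAAtaaaattaaa
Tnfrsf17, chr16:11313698-11313726, plus strand: aaataggtggTTTCTGTTTcaggaatagt

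In Tnfsf13b and Tnfrsf14 the 2 matches overlap and are capitalised as 1 run. Of these 6 members Tnfsf10 alone passed the test of expression, and the log2 differences of Tnfrsf14 (0.05), Tnfrsf1b (0.08) and Tnfrsf4 (0.06) did not pass. Tnfsf13b and Tnfrsf17 were too low to be tested. The other letters searched were GGANNTTCC, a form of the NF-κB site (4.26% of all promoters, with matches in Tnf and Ltb), TTCNNNGAA, a STAT site (8.3%, 9 members), and AGAACA, one arm of the glucocorticoid response element (19% of promoters, among members in Tnfrsf25). None of these 3 occurred in the window of Tnfsf10. A match describes letters and not binding. The 8 members with no promoter in the table were Cd40, Tnfrsf10b, Tnfrsf11b, Tnfrsf22, Tnfrsf26, Tnfsf12, Tnfsf4 and Tnfsf9.

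Values are on the deposited log2 scale of normalized expression. Members with a mean of at least 5 were tested with limma as part of a fit over all 13269 such rows, with Benjamini-Hochberg adjustment over these rows and a threshold of 0.05. Of all rows, 1.85% were called, 1.33% as higher and 0.52% as lower in corneaGRKO. Among the 22 tested members 2 were higher (9.09%) and 0 were lower. At an unadjusted limma p of 0.05, 3 members were higher and 3 lower, where 9.69% of all rows were higher and 6.86% lower. The groups did not overlap for 3 of the 22 members (13.6%), against 10.5% of all rows, with 2 members higher (5.89% of all rows) and 1 lower (4.61%). The difference was above 0 in 15 members, as it was in 45.3% of all rows. The median difference over the tested members was 0.03, and over all tested rows it was -0.0087. The differences were small, with 14 of 22 between -0.1 and 0.1. The deleted gene itself, Nr3c1, fell by 0.47 (SE 0.064, limma adjusted p = 0.00767) in these whole corneas.

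**Figure D1:**
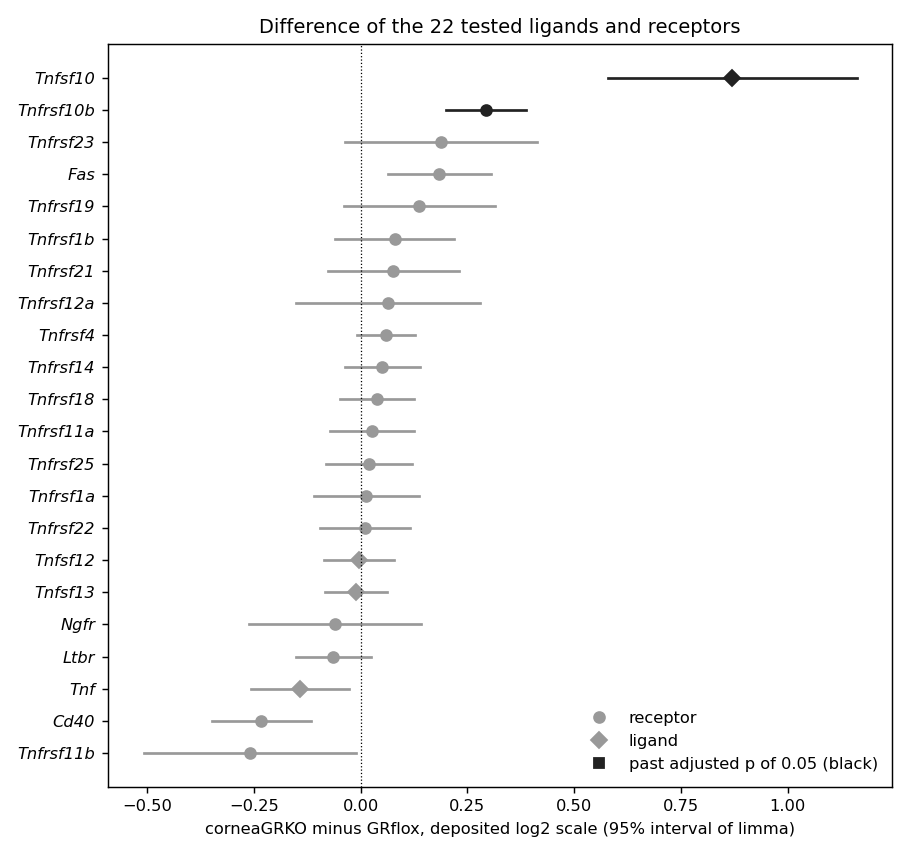
Difference between groups (corneaGRKO minus GRflox, log2 scale) for each of the 22 tested members, with limma's 95% interval, not adjusted for the number of rows; circles are receptors, diamonds are ligands, and black marks an adjusted p under 0.05. Tnfsf10 at 0.87 and Tnfrsf10b at 0.29 are the 2 black points, and Tnfrsf11b (-0.26), Cd40 (-0.23) and Tnf (-0.14) are the 3 lowest.

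The TRAIL group consists of the ligand, the death receptor, the receptors Tnfrsf22 and Tnfrsf23, which in the mouse bind TRAIL without a death domain, their relative Tnfrsf26, and Tnfrsf11b (osteoprotegerin), a soluble decoy that binds RANKL and also TRAIL. Tnfsf10 (Entrez gene 22035, chromosome 3) had values of 8.21, 8.39, 8.48 and 8.18 in GRflox replicates 1, 3, 4 and 5 and of 8.94, 9.21, 9.60 and 9.0 in corneaGRKO replicates 1, 3, 4 and 5. Every corneaGRKO library lay above every GRflox library, and replicate 4 was the highest. The mean went from 8.31 ± 0.145 (SD, n = 4) to 9.19 ± 0.298, a difference of 0.87 (SE 0.131, 95% interval 0.58 to 1.16, limma adjusted p = 0.0111). The call was lost without GRflox replicate 5 (difference 0.83, adjusted p = 0.0512) and held without any other single library. Without corneaGRKO replicate 4 the difference was 0.73 and the adjusted p 0.00278.

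Tnfrsf10b (Entrez gene 21933, chromosome 14) had values of 8.46, 8.57, 8.44 and 8.51 in the GRflox libraries and of 8.77, 8.76, 8.82 and 8.82 in the corneaGRKO libraries, in the same order of replicates. The 4 corneaGRKO libraries were close together and all above the GRflox libraries, with replicate 4 no higher than replicate 5 at this precision. The mean went from 8.50 ± 0.0596 to 8.79 ± 0.034, a difference of 0.29 (SE 0.0423, 95% interval 0.20 to 0.39, limma adjusted p = 0.00926). The call held without each single library in turn (adjusted p from 0.014 to 0.0389).

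The TRAIL receptors without a death domain did not pass. Tnfrsf23 had GRflox values of 6.24, 6.25, 6.20 and 6.16 and corneaGRKO values of 6.19, 6.38, 6.75 and 6.26. The groups overlapped, and the difference of 0.19 (95% interval -0.036 to 0.41, limma adjusted p = 0.38) leaned on corneaGRKO replicate 4, without which it was 0.07. Tnfrsf22 lay between 6.37 and 6.54 over all 8 libraries, with a difference of 0.01 (95% interval -0.094 to 0.11) that changed sign with quantile normalization (-0.024). Tnfrsf26, which neighbours Tnfrsf22 and Tnfrsf23 on chromosome 7, was too low to be tested, with values from 3.76 to 3.86. Tnfrsf22, Tnfrsf23 and Tnfrsf26 are similar in sequence, so reads may have been shared among them.

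Tnfrsf11b, the soluble decoy, had values of 9.38, 9.14, 9.43 and 9.41 in GRflox and of 9.37, 9.18, 8.80 and 8.98 in corneaGRKO. Replicates 4 and 5 of corneaGRKO were the lowest of all 8 libraries, while replicates 1 and 3 lay within the GRflox range. The difference was -0.26 (SE 0.112, 95% interval -0.51 to -0.0099, limma adjusted p = 0.285). It was -0.17 without corneaGRKO replicate 4 (adjusted p = 0.572) and -0.36 without corneaGRKO replicate 1 (adjusted p = 0.0656). Its RANKL partners showed no call: the receptor Tnfrsf11a had a difference of 0.03 (limma adjusted p = 0.78), and the ligand Tnfsf11 lay near the bottom of the table at 0.22 to 0.26.

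**Figure D2:**
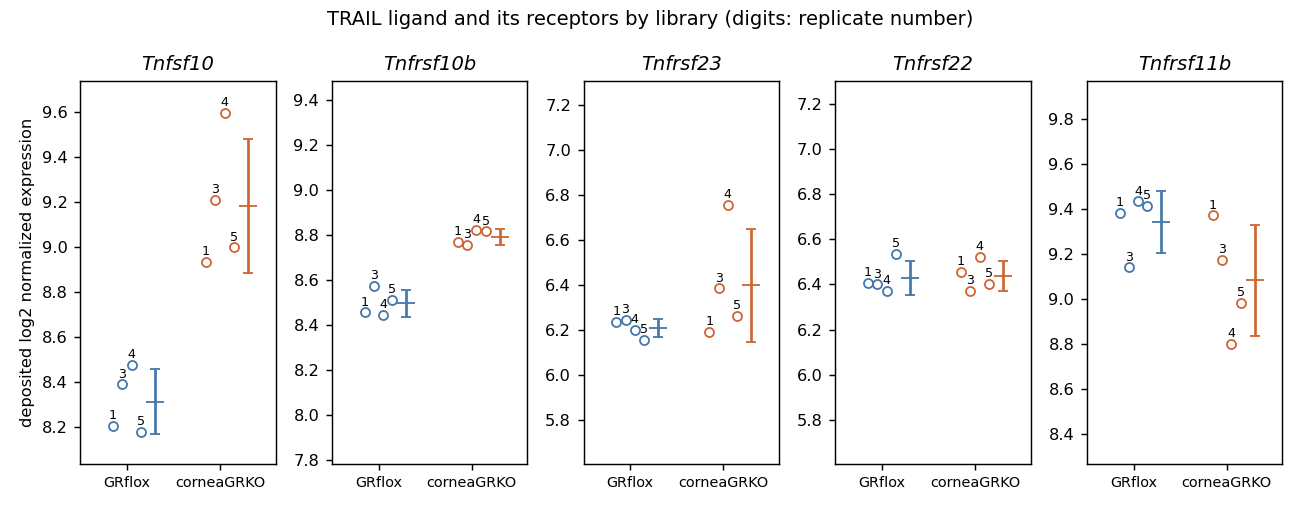
Deposited log2 values of TRAIL (Tnfsf10) and 4 of its receptors in each library, with replicate numbers beside the points, bars for the mean and SD of 4 libraries, and y axes of equal span. Tnfsf10 and Tnfrsf10b separate the groups, while Tnfrsf23, Tnfrsf22 and Tnfrsf11b overlap, with corneaGRKO replicate 4 at 6.75 for Tnfrsf23 and 8.80 for Tnfrsf11b.

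Some markers of other cells moved with the groups beside these calls. Of 7 dendritic cell markers 4 were tested and 3 rose, namely Cd74, H2-Aa and H2-Ab1. Itgax did not pass (0.18, limma adjusted p = 0.059). Flt3 (0.036), Zbtb46 (-0.012) and Cd207 (0.0057) were too low to be tested. The log2 of the summed level was 10.63 to 10.82 in GRflox and 11.09 to 11.46 in corneaGRKO. Cd74 had the highest level in that sum, with means of 10.04 and 10.66. Of 8 conjunctival and goblet cell markers 6 were tested and 3 rose, the keratin genes Krt8, Krt13 and Krt19. Krt4 (1.03, limma adjusted p = 0.122), Krt7 (0.71, limma adjusted p = 0.144) and Agr2 (0.022, limma adjusted p = 0.784) did not pass. Muc5ac (0.022) and Spdef (0.034) were too low to be tested. The sums were 15.29 to 15.65 in GRflox and 15.84 to 16.58 in corneaGRKO, and Krt13 had the highest level in them. Of 10 macrophage and monocyte markers (Adgre1 being at 0 or not listed) 8 were tested and 4 rose, Csf1r, Mrc1, Cx3cr1 and Ptprc. In 5 of the 8 corneaGRKO was higher without overlap, and the median difference was 0.30. The sums overlapped, at 13.40 to 13.61 in GRflox and 13.46 to 13.76 in corneaGRKO. Itgam carried most of these sums, with means of 13.19 and 13.29, and had a difference of 0.10 (limma adjusted p = 0.51). Lyz2, the next highest marker, had means of 9.13 and 9.65, so the sums say little of the markers other than Itgam. Over all tested rows 1.33% were called higher and 5.89% were higher without overlap.

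Markers of tissue next to the cornea were measured as well. The sums of 8 photoreceptor and retina markers were 8.03 to 8.12 in GRflox and 8.19 to 10.22 in corneaGRKO, with 0 of 3 tested genes called. Those of 6 pigment cell markers were 10.60 to 10.72 and 10.81 to 11.16, with 1 of 4 tested genes called. Replicate 4 of corneaGRKO was the highest library for the dendritic, conjunctival, macrophage, photoreceptor and pigment sums. It was also the highest for the keratocyte (18.07), nerve and Schwann cell (13.16) and T and NK cell (5.18) sums. For the corneal epithelium (20.90) and B and plasma cell (4.64) sums it was the lowest. It was the highest of 8 libraries for 10 of the 22 tested members, and the share of all rows was not computed. The part of the cells of these lists in the rise of Tnfsf10 and of Tnfrsf10b was not tested. The 7 corneal epithelium markers in the table, Krt12 and Krt5 among them, held 0 called genes, and Krt3 was at 0 or not listed. Their sums were 21.19 to 21.42 in GRflox and 20.90 to 21.36 in corneaGRKO. Krt14 alone had a difference above 0 (0.48, limma adjusted p = 0.191), and its groups did not overlap. Of 8 stromal keratocyte markers 2 fell, Kera by 0.29 (limma adjusted p = 0.0369) and Col5a1 by 0.33 (limma adjusted p = 0.0127). The differences of 5 of the 8 were above 0, and the median was 0.079. Ogn (0.38, limma adjusted p = 0.151) and Thy1 (0.34, limma adjusted p = 0.103) were higher in corneaGRKO but did not pass. The keratocyte sums were 17.89 to 18.03 in GRflox and 17.84 to 18.07 in corneaGRKO. The 5 corneal endothelium markers held 0 called genes, but their sums did not overlap, at 15.96 or above in GRflox and 15.87 to 15.90 in corneaGRKO, and the values of Slc4a11 (-0.26, adjusted p = 0.105) and Car3 (-0.27, adjusted p = 0.0632) did not overlap between the groups either.

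**Figure D3:**
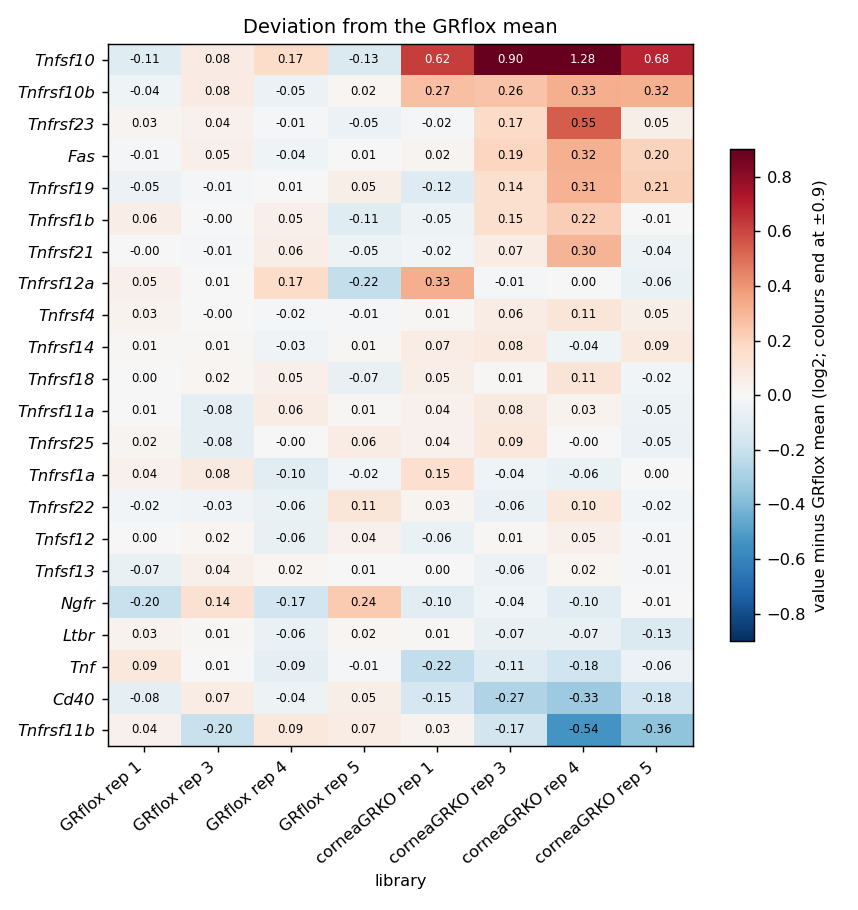
Value of each tested member in each library minus the mean of the 4 GRflox libraries (log2 scale, colours ending at ±0.9), ordered by the difference between groups. Tnfsf10 and Tnfrsf10b lie above the GRflox mean by 0.258 or more in all 4 corneaGRKO libraries, and replicate 4 holds both extremes of the map, from 1.28 for Tnfsf10 to -0.54 for Tnfrsf11b.

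The TNF and lymphotoxin group held 0 called members among the 5 tested of 8. Tnf, the ligand that gives the family its name, had GRflox values of 8.08, 8.0, 7.90 and 7.98 and corneaGRKO values of 7.77, 7.88, 7.81 and 7.94. The corneaGRKO libraries were mostly lower, but the ranges overlapped, and the difference was -0.14 (SE 0.0518, 95% interval -0.26 to -0.027, limma adjusted p = 0.199). The ubiquitous receptor Tnfrsf1a, at 11.95 to 12.14 in GRflox and 11.99 to 12.20 in corneaGRKO, had a difference of 0.01 (95% interval -0.11 to 0.14) whose sign changed with library weights (-0.044). The inducible receptor Tnfrsf1b had a difference of 0.08 (95% interval -0.061 to 0.22), and the lymphotoxin beta receptor Ltbr of -0.06 (95% interval -0.15 to 0.024). Tnfrsf14, the receptor of LIGHT, had a difference of 0.05 (95% interval -0.038 to 0.14). The ligands Ltb (4.79 to 4.92), Lta (4.04 to 4.18) and Tnfsf14 (0.33 to 0.36) were too low to be tested. Tnf, Lta and Ltb neighbour each other on chromosome 17.

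Fas, the receptor of FAS ligand, had values of 5.69, 5.75, 5.66 and 5.71 in GRflox and of 5.73, 5.90, 6.02 and 5.90 in corneaGRKO. Replicates 3, 4 and 5 of corneaGRKO lay above all GRflox libraries, and replicate 1 lay within their range. The difference was 0.18 (SE 0.0545, 95% interval 0.063 to 0.31, limma adjusted p = 0.125). It passed without corneaGRKO replicate 1 (0.24, adjusted p = 0.0181), without corneaGRKO replicates 1 and 4 together (0.20, adjusted p = 0.0281) and with library weights (0.18, adjusted p = 0.019). The ligand Fasl was near the bottom of the table in every library, at 0.55 to 0.57.

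Cd40 had values of 7.60, 7.75, 7.64 and 7.74 in GRflox and of 7.53, 7.41, 7.36 and 7.50 in corneaGRKO. All 4 corneaGRKO libraries were lower than all 4 GRflox libraries, which was the 1 such case among the tested members. The difference of -0.23 (SE 0.052, 95% interval -0.35 to -0.12) missed the threshold with a limma adjusted p of 0.054. It passed without corneaGRKO replicate 1 (-0.26, adjusted p = 0.0316) and with library weights (-0.25, adjusted p = 0.00951), and without the other single libraries the adjusted p was up to 0.175. The part of the cells that carry CD40, such as dendritic cells, was not tested. The gene of the CD40 ligand, Cd40lg, was at 0 or not listed under this symbol.

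**Figure D4:**
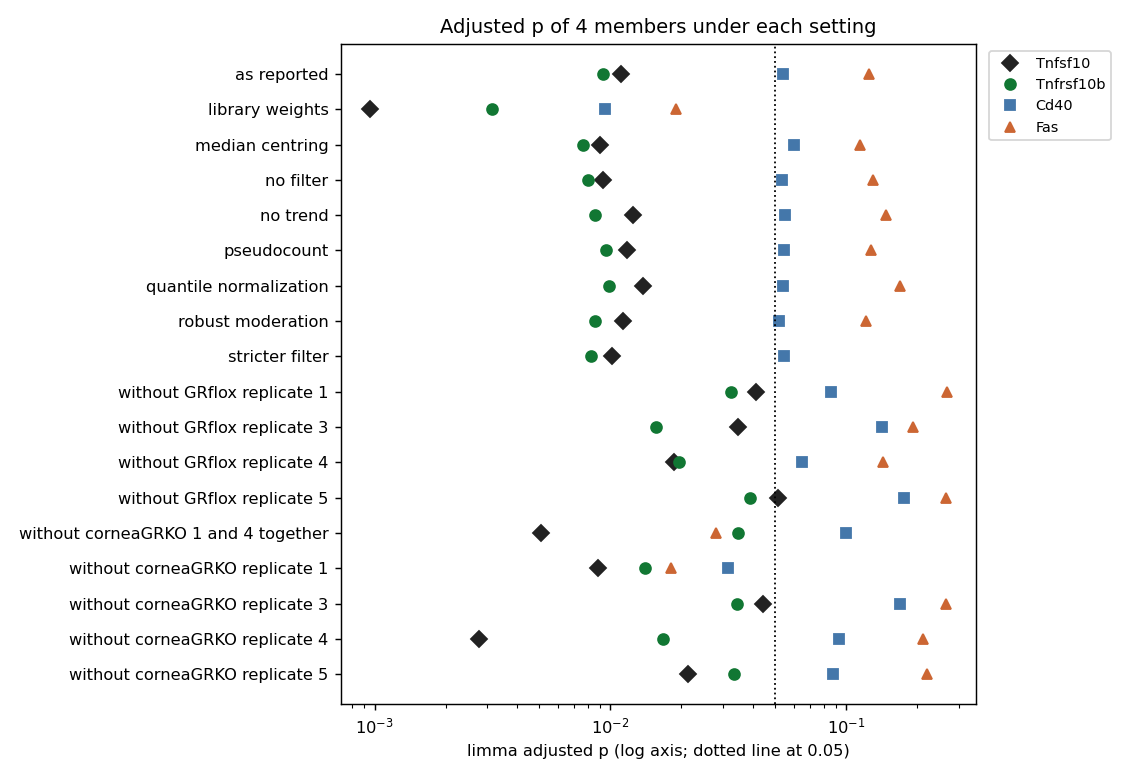
Adjusted p of limma (log axis) for Tnfsf10, Tnfrsf10b, Cd40 and Fas as reported and under other settings of the processing, with a dotted line at the threshold of 0.05. Tnfrsf10b stays left of the line in every setting drawn, and Tnfsf10 crosses it without GRflox replicate 5 (0.0512). Cd40 and Fas cross to the left without corneaGRKO replicate 1 (0.0316 and 0.0181) and with library weights. Fas also crosses without corneaGRKO replicates 1 and 4 together (0.0281). The fit with a replicate block is not drawn.

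The receptors Ngfr, Tnfrsf21, Tnfrsf19, Tnfrsf12a and Tnfrsf25 and the ligand Tnfsf12 did not pass. Ngfr, the low-affinity neurotrophin receptor, had GRflox values of 10.57, 10.92, 10.61 and 11.01 and corneaGRKO values of 10.68, 10.74, 10.68 and 10.77. The GRflox libraries enclosed the corneaGRKO ones, and the difference was -0.06 (95% interval -0.26 to 0.14), with the opposite sign without GRflox replicate 5 (0.018). The 7 nerve and Schwann cell markers, of which Ngfr is 1, held 0 called genes by limma. Among them 5 were higher at an unadjusted limma p of 0.05 (9.69% of all rows) and 3 were higher without overlap (5.89%). Their log2 sums were 12.99 to 13.12 in GRflox and 13.04 to 13.16 in corneaGRKO, and Mbp (means 12.62 and 12.70) carried most of them. Tnfrsf21 (DR6), a death domain receptor, had a difference of 0.08 (95% interval -0.078 to 0.23) that fell to 0.00075 without corneaGRKO replicate 4. Tnfrsf19 (TROY), a receptor linked to WNT-active epithelium, had a difference of 0.14 (limma adjusted p = 0.417), but its value of 8.90 in corneaGRKO replicate 1 was below all GRflox libraries and 9.17, 9.34 and 9.24 in the others were above them. Without replicate 1 the difference was 0.22 and passed (adjusted p = 0.0425), and without corneaGRKO replicate 4 it was 0.078 (adjusted p = 0.758). Tnfrsf12a (FN14), the receptor of TWEAK and a gene of injured tissue, had a difference of 0.06 (95% interval -0.15 to 0.28), which changed sign without corneaGRKO replicate 1 (-0.022) or GRflox replicate 5 (-0.0076). Its ligand Tnfsf12 had a difference of -0.0034 (95% interval -0.086 to 0.079), and the TL1A receptor Tnfrsf25 of 0.02 (95% interval -0.081 to 0.12), with opposite signs under median centring (0.0015) and quantile normalization (-0.013).

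Members of lymphocyte co-stimulation and B cell survival were low. Of 8 co-stimulatory members only the receptors Tnfrsf4 (OX40) and Tnfrsf18 (GITR) reached the level for testing, with differences of 0.06 (95% interval -0.0078 to 0.13) and 0.04 (95% interval -0.048 to 0.12). Of 5 members of the BAFF and APRIL group only the ligand Tnfsf13 (APRIL) did, with a difference of -0.01 (95% interval -0.085 to 0.062). The defining markers of these lymphocytes were at the bottom of the table as well: 0 of 10 T and NK cell markers and 0 of 6 B and plasma cell markers reached the mean of 5, and Trac and Jchain had no row above 0. The log2 sums were 5.05 to 5.07 in GRflox and 5.09 to 5.18 in corneaGRKO for the T and NK cell list, and 4.66 to 4.71 and 4.64 to 4.67 for the B and plasma cell list.

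The 17 members under a mean of 5 (11 ligands and 6 receptors) had means from -3.36 to 4.83. Of these, 15 had a difference under 0.05 in size, and the largest, 0.11, was that of Tnfsf18, the GITR ligand, with 4.10 in corneaGRKO replicate 4 against 3.71 to 3.83 in the other 7 libraries. In a fit without the filter on low values 0 of the 17 passed limma's adjusted threshold, where 0.271% of all rows under 5 did, and 3 had an unadjusted p under 0.05 (9.45% of such rows). The groups did not overlap for Tnfsf15, Tnfsf8 and Tnfrsf8, all higher in corneaGRKO, by 0.04, 0.026 and 0.0044. Of all rows under 5, 6.96% did not overlap, and 5.47% were higher without overlap. Values so low vary little between libraries on the deposited scale, so a real change of these members could be compressed.

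Levels of different genes were compared after the log2 of the exonic length in kb was subtracted, with exons from GENCODE. In GRflox corneas Tnfrsf1a was the most abundant member per length (10.68), followed by Ltbr (9.88), Tnfrsf21 (9.49) and Ngfr (8.99). The soluble decoy Tnfrsf11b came next at 7.85. Tnf was the most abundant ligand among the members, at 7.28 per length. The ligand gene Eda, which is not a member by symbol, was not ranked. Steps between neighbours in this order were smaller than the summed SD of both genes from Tnfrsf10b (6.05) through Tnfsf10 (5.92), Cd40 (5.91) and Tnfsf12 (5.83) to Tnfrsf25 (5.83), so no 2 neighbours in that run differed beyond their spread, although its ends, Tnfrsf10b and Tnfrsf25, were further apart than their summed SD. The same held between Tnfrsf4 (5.38) and Tnfrsf18 (5.35) and between Tnfrsf11a (4.69), Fas (4.66) and Tnfrsf1b (4.56). In corneaGRKO the level of Tnfsf10 per length was 6.79, above that of Tnfrsf10b (6.34).

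**Figure D5:**
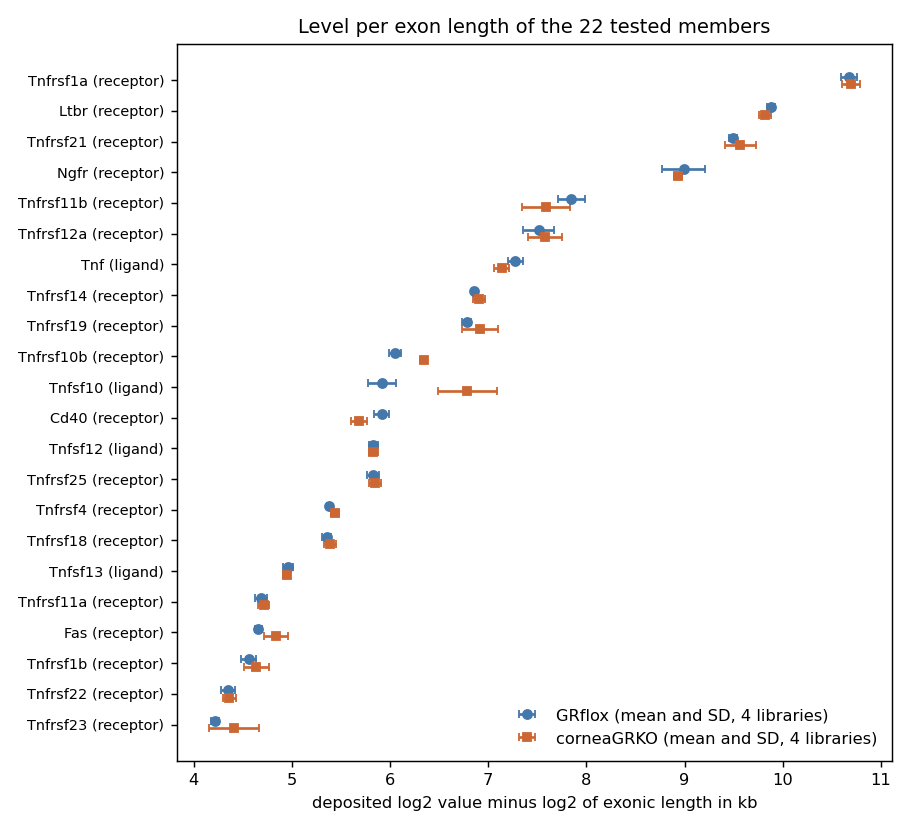
Level per exon length (deposited log2 value minus log2 of exonic length in kb) of the 22 tested members, with the mean and SD of 4 libraries per group. Tnfrsf1a leads at 10.68 in GRflox, and Tnfsf10 moves from 5.92 to 6.79 between groups while most other pairs of points lie close together.

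Related genes were read from 6 lists of the pathway, which hold 70 distinct tested genes. Of these 3 rose (4.29%, against 1.85% of all rows called in either direction) and 0 fell. At an unadjusted limma p of 0.05, 16 were higher and 5 lower, where 9.69% of all rows were higher and 6.86% lower. The same shares of all rows apply to the unadjusted counts of the single lists below. The median difference was 0.03. Icam1, an adhesion molecule for leukocytes that TNF induces, had GRflox values of 8.61, 8.54, 8.60 and 8.56 and corneaGRKO values of 8.95, 9.10, 9.38 and 8.88. All corneaGRKO libraries were higher, and the difference was 0.50 (SE 0.0914, limma adjusted p = 0.0274). It was the 1 called gene of 13 tested TNF-responsive genes, whose median difference was 0.01.

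Apaf1, the scaffold on which caspase 9 is activated, had GRflox values of 9.63, 9.65, 9.71 and 9.69 and corneaGRKO values of 9.79, 9.93, 10.05 and 9.92. The groups did not overlap, and the difference was 0.25 (SE 0.0525, limma adjusted p = 0.0442). It was the 1 called gene among 15 genes of the death machinery (median 0.03). Traf1, an adaptor of TNF receptors, had GRflox values of 5.46, 5.43, 5.46 and 5.44 and corneaGRKO values of 5.58, 5.66, 5.78 and 5.59, again without overlap. Its difference was 0.20 (SE 0.0428, limma adjusted p = 0.0476), and it was the 1 called gene of 18 adaptors and ubiquitin enzymes (median -0.0051). Replicate 4 of corneaGRKO was the highest library for each of these 3 genes.

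These 3 calls were lost without some single libraries. Without GRflox replicate 1, 3 or 5 or corneaGRKO replicate 3 all 3 were lost, with limma adjusted p of 0.0742, 0.0779, 0.0969 and 0.0966 for Icam1, 0.126, 0.114, 0.12 and 0.134 for Apaf1 and 0.123, 0.121, 0.145 and 0.142 for Traf1. In these 4 fits the difference was 0.49 to 0.51 for Icam1, 0.24 to 0.26 for Apaf1 and 0.19 to 0.21 for Traf1. Over every fit without 1 library it was 0.40 to 0.56, 0.21 to 0.29 and 0.16 to 0.22, lowest without corneaGRKO replicate 4. Apaf1 and Traf1 were also lost without GRflox replicate 4 (0.0539 and 0.0686) or corneaGRKO replicate 5 (0.0907 and 0.062), and Apaf1 without corneaGRKO replicate 4 (0.0562) or without the filter on low values (0.05 when rounded). With quantile normalization both missed the threshold (0.055 and 0.0624), and Traf1 also missed it without the mean-variance trend (0.0667) and with a pseudocount of 16 on the linear scale (0.0518).

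The remaining lists held 0 calls by limma. Among 18 NF-κB genes the smallest adjusted p were those of the kinase gene Map3k14 (0.15, adjusted p = 0.146), the inhibitor gene Nfkbia (-0.18, adjusted p = 0.166) and the inhibitor gene Nfkbie (0.15, adjusted p = 0.233), with 4 higher and 1 lower at an unadjusted p of 0.05 and a median difference of 0.02. Nfkbia passed without GRflox replicate 4 (-0.24, adjusted p = 0.0253), and with library weights Map3k14 (adjusted p = 0.0417), Nfkbia (adjusted p = 0.0144) and Nfkbie (adjusted p = 0.0365) passed. Among 8 tested genes of ligand shedding and processing these were Rhbdf2 (0.11, adjusted p = 0.153), a partner of the TNF-shedding protease, Sppl2a (0.11, adjusted p = 0.155), an intramembrane protease, and Timp3 (0.28, adjusted p = 0.166), an inhibitor of that shedding protease. With library weights Sppl2a (adjusted p = 0.0318) and Timp3 (adjusted p = 0.0361) passed. Their unadjusted counts were 4 higher and 1 lower, with a median of 0.05.

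Family members named otherwise formed the last list, of which 3 were tested and 0 called, with 1 higher and 0 lower at an unadjusted limma p of 0.05 and a median of 0.04. The ectodysplasin receptor gene Edar had a difference of 0.19 (limma adjusted p = 0.139), its adaptor Edaradd of -0.08 and the ligand Eda of 0.04. Eda2r, a further ectodysplasin receptor of the TNF receptor family, lay just under the level for testing, with GRflox values of 4.70, 4.72, 4.69 and 4.70 and corneaGRKO values of 4.85, 4.87, 4.95 and 4.92. Every corneaGRKO library was higher. In the fit without the filter it rose by 0.19 (SE 0.0261, limma adjusted p = 0.00753), where 0.271% of rows under a mean of 5 were called. That call held without each single library in turn (adjusted p from 0.0107 to 0.0459). Eda2r was chosen and these fits were added after its values were seen, so they are no independent support.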

How the data were processed

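RNA of 8 whole-cornea pools was sequenced as 75 nt pairs with more than 40000000 reads per sample, per the labels. The authors deposited log2 normalized expression values for 24918 rows, of which 5382 were 0 in every library. The submitters' processing notes name Bowtie2, HTSeq and DESeq2. The genome is mm9 there and mm10 in the labels' extraction protocol, and positions are given only for RefSeq promoters. The log2 transformation is not stated. Weak genes vary little between libraries, so the values may have been shrunk, which would make log2 differences too small, most of all for weak genes, and would alter levels per length. The depth of each library is unknown, so no counting interval is given. There were 0 value columns without a library. No library was a duplicate, since the closest pair differed by a median of 0.0427 in absolute value.

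Rows with a mean of at least 5 (13269) were fitted with limma 3.58.1 in R 4.3.3 (with its mean-variance trend and no covariate, two-sided). Nothing says that pools share no litter or day, so p-values measure only the spread among these pools. There were 18 alternatives: other normalizations, filters and moderation, a pseudocount, library weights, a replicate block, and leaving out each library in turn or 2 together. The fits of Eda2r without each library were added after its values were seen. The members and lists were chosen with earlier results of these data known. All members could be named, and of each list the genes past the test or else the 3 with the smallest adjusted p. Eda2r falls outside this rule and was chosen after its values were seen. Log2 sums of marker lists add the values on the linear scale. Exonic lengths, found for all 39 members, merge the exons of each gene in GENCODE.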

Additional observations from a re-analysis of the deposited data

Results flagged for a closer look

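In 7 of the 78 groups of 4 libraries (39 members in 2 groups) the highest or lowest library stood apart from the other 3 by Dixon's criterion at the 95% level. If values are normally distributed, chance gives such a gap in about 1 of 20 groups. Whether that holds for the weak members, whose values vary little between libraries, was not tested. Of these 7, 3 were in tested members. Tnfrsf12a was 8.789 in corneaGRKO replicate 1 against 8.402 to 8.464 in the other 3 libraries. Tnfrsf14 was 7.343 in corneaGRKO replicate 4 against 7.452 to 7.472, and 7.35 in GRflox replicate 4 against 7.391 to 7.395. The other 4 were in members too low to be tested: Ltb at 4.921 in GRflox replicate 1 against 4.828 to 4.844 and at 4.831 in corneaGRKO replicate 3 against 4.789 to 4.791, Tnfsf14 at 0.3345 in GRflox replicate 1 against 0.3292 to 0.3295, and Tnfsf4 at -3.355 in corneaGRKO replicate 5, where the others were all at -3.359. No explanation of these values was tested.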

How the results depend on the processing

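Over the 22 tested members and the 18 alternatives, 356 results kept their direction and side of the threshold, 7 newly passed, 1 was lost and 24 changed sign, all 24 in members that did not pass. The stricter filter (a mean of at least 7) gives no value for Fas, Tnfrsf1b, Tnfrsf4, Tnfrsf18, Tnfrsf22, Tnfrsf23, Tnfsf12 and Tnfsf13. Tnfrsf10b passed under all 18 (limma adjusted p from 0.00315 to 0.0389) and Tnfsf10 under all but 1 (0.000956 to 0.0512). The number of higher members was 1 to 4 and of lower members 0 to 1 when single libraries were left out. Of all rows, 68 to 574 then passed, 52 to 416 of them higher, and of the pathway genes 0 to 5. With library weights 1980 rows passed, 973 of them higher, with 1 lower member and 15 pathway genes, from weights of 0.334 to 2.25 estimated on the same libraries. With quantile normalization 1 pathway gene passed. The causes were not tested.

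Signs changed for Tnfrsf1a (-0.044) and Tnfrsf22 (-0.018) with library weights, for Tnfrsf25 (-0.013) and Tnfrsf22 (-0.024) with quantile normalization and for Tnfsf12 (0.0015) with median centring. Without corneaGRKO replicates 1 and 4 together they changed for Tnfrsf18 (-0.0069), Tnfrsf12a (-0.034), Tnfrsf1a (-0.018), Tnfrsf22 (-0.041) and Tnfsf12 (0.0012). Leaving out single libraries gave -0.0087 to 0.044 for Tnfrsf25, -0.035 to 0.0033 for Tnfsf13, -0.025 to 0.017 for Tnfsf12, -0.031 to 0.042 for Tnfrsf1a, -0.018 to 0.046 for Tnfrsf22, -0.022 to 0.12 for Tnfrsf12a and -0.13 to 0.018 for Ngfr.

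Libraries of the 2 groups share replicate numbers. Deviations from the group means of same-numbered libraries correlated at 0.51, -0.28, 0.26 and 0.06 for numbers 1, 3, 4 and 5, so the numbers were not taken as pairs, and GRflox replicates 3 and 4 correlated better with another number. With the replicate number as a block 663 rows passed, 466 of them higher, with 1 lower member, Cd40 (adjusted p = 0.0401), and 5 pathway genes, Timp3 among them (adjusted p = 0.032).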
